A study of Rattus norvegicus with 8 samples.

Results

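Ifi47, Irgm, Gbp2, Mx1, Oasl2, Epsti1 and Ifngr1 are genes of the response to interferon, and their transcripts were compared in the spinal cord of rats with experimental autoimmune encephalomyelitis (EAE) and of healthy rats. The 7 genes were chosen by symbol, and each matched 1 transcript cluster, so that 7 clusters of the 8793 in the table are described. A transcript cluster is the group of exon probe sets that the array assigns to one gene. EAE is an induced autoimmune disease of the central nervous system and a model of the inflammatory phase of multiple sclerosis. The MBP-EAE group was 4 female virgin Lewis rats (217, 218, 219 and 241) that received 50 µg of guinea pig myelin basic protein (MBP) under the skin at the tail base, in incomplete Freund's adjuvant holding 4.0 mg/ml of mycobacteria. The healthy control group was 4 untreated littermates (193, 194, 195 and 196), which had neither MBP nor adjuvant, so that the effect of the antigen and that of the adjuvant cannot be told apart. All 8 rats were 16 weeks old in the sample labels, and whole spinal cord was taken from each on day 13 after injection and hybridised to 1 Rat Exon 1.0 ST array. The question put to each gene was whether its transcript level differed between inflamed and healthy spinal cord, and how far the 4 MBP-EAE rats differed among themselves.

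Interferons are cytokines that set infected or inflamed tissue into a defended state. Interferon-gamma, made by T cells and NK cells, binds a receptor whose ligand-binding chain is Ifngr1 and acts through the kinases Jak1 and Jak2, while the type I interferons act through a different receptor and a complex that holds Stat2 and Irf9. Their target genes include large GTPases that gather on the vacuoles of intracellular microbes or block viruses, and enzymes that sense viral RNA. In the central nervous system, microglia, astrocytes and invading leukocytes can all respond to them.

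The sequence before each gene's start is given first, since the response element for type I interferon (ISRE) and the element for interferon-gamma (GAS) are the known landing sites of those complexes. The 250 bases before the RefSeq start (GRCr8) of all 7 genes were searched on both strands for a shortened ISRE, GAAANNGAA, and for GAS, TTCNNNGAA, which reads alike on both strands. Capitals mark the matches, and an ISRE match on the opposite strand reads TTCNNTTTC. Ifi47, at chr10:33798494-33798743 on the plus strand, is printed over the whole window because it held 2 GAS matches. Gbp2, at chr2:234005477-234005726 on the plus strand, is printed over the whole window as the member with 1 ISRE match and no GAS match whose window lies wholly outside the annotated gene.
Ifi47: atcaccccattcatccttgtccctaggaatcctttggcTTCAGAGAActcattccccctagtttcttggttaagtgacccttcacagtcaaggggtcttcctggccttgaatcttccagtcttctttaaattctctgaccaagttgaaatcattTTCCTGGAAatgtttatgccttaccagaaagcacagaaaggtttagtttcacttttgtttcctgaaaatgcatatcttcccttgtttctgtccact
Gbp2: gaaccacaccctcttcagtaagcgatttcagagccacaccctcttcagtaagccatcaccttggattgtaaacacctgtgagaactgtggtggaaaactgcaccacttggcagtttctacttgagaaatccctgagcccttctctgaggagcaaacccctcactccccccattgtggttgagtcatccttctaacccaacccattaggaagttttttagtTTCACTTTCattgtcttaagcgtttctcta
For the other 3 genes with a match, 30 bases around it are shown, since their windows lie in part, and that of Epsti1 wholly, inside the annotated span of the same gene. They are Irgm at chr10:33742599-33742628 on the minus strand, Oasl2 at chr12:47383316-47383345 on the minus strand and Epsti1 at chr15:59693356-59693385 on the plus strand.
Irgm: ttcgtTTCAAGGAAtaGAAACTGAAaccga
Oasl2: aagctttggtTTCAGTTTCcaggcttgagg
Epsti1: tggttaaagaGAAATCGAAactcagctgtt
The ISRE letters were found before 4 of the 7 genes (Irgm, Gbp2, Oasl2 and Epsti1), beside 8.12% of the 33469 promoters in the table. In Irgm, Gbp2 and Epsti1 the match lay close to the start, at -34 to -26, -30 to -22 and -35 to -27, and in Oasl2 it lay farther out, at -150 to -142. The GAS letters were found before 2 of the 7, beside 7.67% of all promoters. They stood at -212 to -204 and -96 to -88 in Ifi47 and at -45 to -37 in Irgm, whose 2 matches lay 1 after the other with no shared base, and 0.902% of all promoters held both motifs. Neither set of letters was found in the window of Mx1 or Ifngr1, which says only that these letters are not in those 250 bases. Among the other interferon pathway genes described further on, the ISRE letters stood before 15 of the 33 with a promoter that were called higher and before 2 of the 16 that were not. A match is a description of letters, and binding was not measured. These coordinates are of GRCr8 and not of rn4, the build named for the arrays.

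Values are the deposited log2 intensities, in which a step of 1 is a doubling, and a cluster was called changed where the Benjamini-Hochberg adjusted p from limma over all 8793 clusters was under 0.05. In all, 994 clusters were called higher in MBP-EAE (11.3% of those tested) and 1280 lower (14.6%). After cyclic loess between arrays the split turned to 1373 higher and 991 lower. The median log2 fold change of all clusters was -0.10, and it was -0.24 when arrays were shifted by reference genes. Of these reference genes Actb, Gusb and Rplp0 were themselves called higher, by 1.38, 0.98 and 2.68, and the others were not called. Results after this shift are therefore uncertain in scale. Array medians lay between 4.94 and 5.08, and the interquartile range was 2.23 in healthy rat 195 against 2.61 to 2.93 in the other 7 arrays. Markers of spinal cord stood near the top of the scale in both groups, with Snap25 of neurones at a mean of 12.45 in healthy and 12.20 in MBP-EAE rats, and Mbp of oligodendrocytes at 11.41 and 10.81. With 4 arrays a group, the number of arrays limits the precision, and the batch of each array was not used here.

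All 7 genes were called higher in MBP-EAE, where 11.3% of all clusters were, and the rise ran from 3.85-fold for Ifngr1 to 50.8-fold for Ifi47. For all 7 the lowest MBP-EAE rat lay above the highest healthy rat, as it did for 12% of all clusters. Ranked by their rise among the 8793 clusters, 6 of the 7 were among the first 49 and Ifngr1 was the 160th. The 7 genes were chosen with earlier results of these data known, so that these shares and ranks are a description with no test. In whole tissue, more cells that express a gene and more RNA per cell cannot be told apart.

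Ifngr1, the chain of the receptor that binds interferon-gamma, had a value of 7.57, 7.43, 7.29 and 7.61 in healthy rats 193, 194, 195 and 196, and of 9.50, 9.36, 9.11 and 9.71 in MBP-EAE rats 217, 218, 219 and 241. It was well expressed in healthy spinal cord, and the groups stood apart, with rat 241 highest and rat 219 lowest of the MBP-EAE rats. The rise was 1.94 on the log2 scale (SE 0.14), or 3.85-fold (95% interval 3.11 to 4.77, adjusted p = 4.79e-06), and it was the smallest of the 7.

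Ifi47 and Irgm are immunity-related GTPases, which in mouse are induced by interferon-gamma and protect cells from microbes that live in vacuoles. Ifi47 stood at 5.13, 5.19, 4.36 and 4.90 in healthy rats 193, 194, 195 and 196, and at 10.41, 10.69, 10.70 and 10.44 in MBP-EAE rats 217, 218, 219 and 241. The MBP-EAE rats lay within 0.29 of each other and 5.23 above the highest healthy rat, while rat 195 was lowest of the healthy rats. The rise was 5.67 (SE 0.18), or 50.8-fold (38.6 to 66.8, adjusted p = 1.63e-08), which was the 8th largest of all clusters.

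Irgm stood at 5.37, 5.18, 5.12 and 5.03 in the healthy rats, in the same order, and at 8.87, 9.10, 9.25 and 8.78 in the MBP-EAE rats. The groups did not overlap, and rats 218 and 219 were the higher MBP-EAE rats. Its rise was 3.83 (SE 0.13), or 14.2-fold (11.6 to 17.3, adjusted p = 1.96e-08). Gbp2, a guanylate-binding protein of a second family of interferon-inducible GTPases that coat pathogen vacuoles and bacteria, stood at 5.76, 6.10, 5.43 and 5.72 in healthy and at 9.71, 9.88, 10.01 and 9.88 in MBP-EAE rats. The 4 MBP-EAE rats were again close together and far above the healthy rats, which spread more. Its rise was 4.12 (SE 0.14), or 17.3-fold (13.9 to 21.6, adjusted p = 2.25e-08).

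Mx1, a dynamin-like GTPase that restricts influenza and other viruses in rodents and is a classical target of type I interferon, showed a large rise with a large spread. It stood at 3.99, 3.85, 3.66 and 4.05 in healthy rats, of which 2 lay below the lower quartile of their array, and at 8.91, 7.01, 9.79 and 7.60 in MBP-EAE rats 217, 218, 219 and 241. Rat 219 was highest and rat 218 lowest of the MBP-EAE rats, 6.86-fold apart, yet all 4 were above every healthy rat. The rise was 4.44 (SE 0.50), or 21.7-fold (10.02 to 47.0, adjusted p = 0.000133). It was 3.95 without rat 219 and 4.88 without rat 218, and it was called in both cases. The healthy level was near the bottom of the scale, where background makes up much of the signal, so that the size of the fold is less certain than its direction. Probes shared with Mx2 were not tested.

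Oasl2 belongs to the 2'-5'-oligoadenylate synthetase (OAS) family, whose active members answer viral double-stranded RNA by making the messenger that switches on RNase L. It stood at 4.22, 4.24, 3.92 and 3.89 in healthy rats, of which 2 lay below the lower quartile of their array, and at 8.11, 7.34, 8.37 and 7.52 in MBP-EAE rats. Rats 217 and 219 were the higher pair of MBP-EAE rats, as for Mx1, and the groups did not overlap. The rise was 3.77 (SE 0.22), or 13.6-fold (9.74 to 19.1, adjusted p = 8.62e-07).

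Epsti1, an interferon-responsive gene first described in breast cancer cells grown with stromal cells, stood at 4.93, 5.24, 5.01 and 4.97 in healthy rats and at 8.65, 8.47, 8.44 and 8.32 in MBP-EAE rats. Both groups were tight, and rat 217 was highest of the MBP-EAE rats. The rise was 3.43 (SE 0.11), or 10.8-fold (9.13 to 12.8, adjusted p = 1.71e-08).

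**Figure D1:**
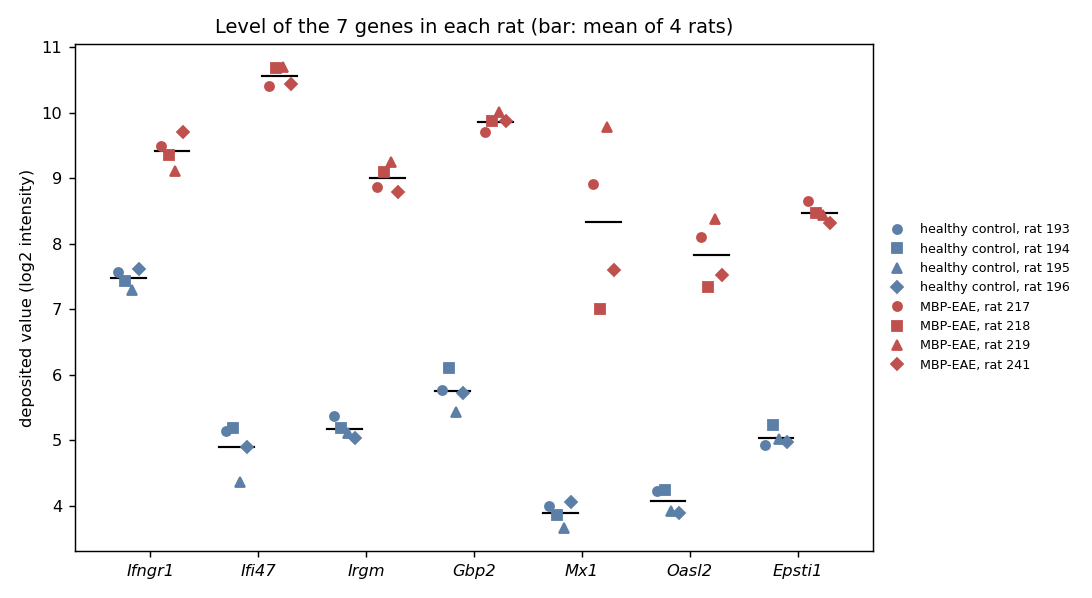
Deposited log2 intensity (vertical axis) of each of the 7 genes in each of the 8 rats, with healthy control rats in blue, MBP-EAE rats in red, 1 marker shape per rat within a group and a bar at the mean of 4 rats. The red points lie above the blue for all 7 genes, and Mx1 has the widest red spread, from 7.01 to 9.79.

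Whether one gene rose more than another was asked in the same arrays, by the difference of their log2 values within each array, over the 21 pairs of genes. Ifi47 rose by 1.55 more than Gbp2 on the log2 scale (SE 0.10), by 1.84 more than Irgm (SE 0.17), by 1.90 more than Oasl2 (SE 0.28) and by 2.23 more than Epsti1 (SE 0.21). In each of these pairs the 4 MBP-EAE differences lay above the 4 healthy ones. Ifngr1 rose less than each of the other 6 genes, by 1.49 (SE 0.19) against Epsti1 and up to 3.72 (SE 0.25) against Ifi47, again with no overlap. Gbp2 rose by 0.68 more than Epsti1 (SE 0.16). These 11 pairs had the smallest p that the exact two-sided permutation test can give with 4 against 4 arrays, 0.0286, and a Benjamini-Hochberg adjusted p of 0.0545, so that 0 of 21 passed 0.05. The rise of Irgm and that of Oasl2 differed by 0.06 (SE 0.23, exact permutation p = 0.857). Since 2 of the 4 healthy values of Oasl2 and of Mx1 lay below the lower quartile, near background, the differences that hold either gene are uncertain in size. Mx1 could not be placed in this order with precision, and its rise differed from that of Ifi47 by 1.23 (SE 0.64, exact permutation p = 0.114).

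Among the 7 genes the MBP-EAE rats differed most in Mx1. Its SD over the 4 MBP-EAE rats was 1.26, the 3rd largest of all 8793 clusters, against a median SD of 0.142, while its SD over the 4 healthy rats was 0.17. Oasl2 followed among the 7 genes with an SD of 0.49, ranked 224th. The SD was 0.25 for Ifngr1, 0.21 for Irgm, 0.15 for Ifi47, 0.14 for Epsti1 and 0.13 for Gbp2, of which that of Ifi47, at the 55.9th percentile of clusters, and those of Epsti1 and Gbp2 were ordinary. The 8793 clusters hold the 7 genes and 59 genes of the interferon lists described further on. Of the 20 clusters with the largest SD over the MBP-EAE rats, 5 were Mx1 or genes of these lists. Beside Mx1 they were Oas2, Oas1b, Mx2 and Rsad2. These 4 were chosen after their values were seen.

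**Figure D2:**
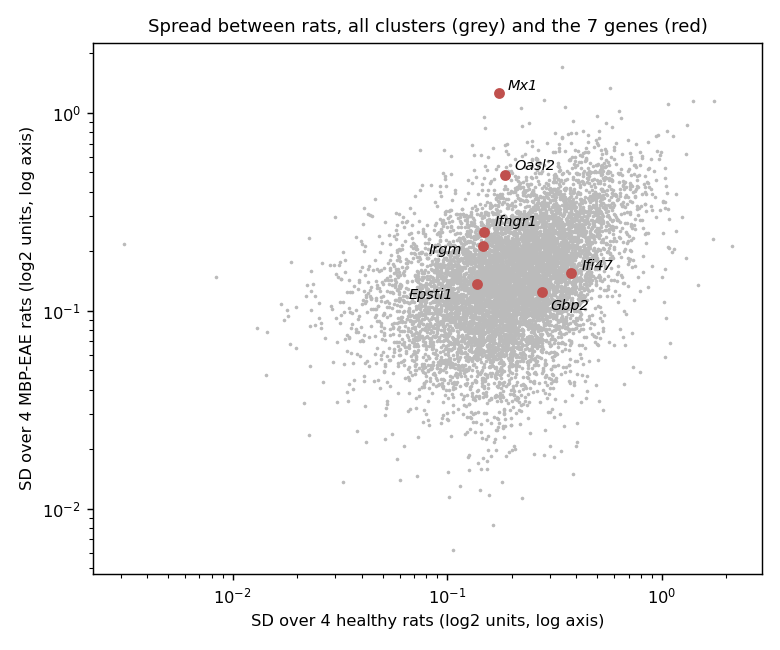
SD of the log2 value over the 4 healthy rats (horizontal, log axis) and over the 4 MBP-EAE rats (vertical, log axis) for each of 8793 clusters in grey and the 7 genes in red. Mx1 lies at the upper edge of the cloud at 0.17 and 1.26, and Oasl2 below it at 0.19 and 0.49.

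The order of the MBP-EAE rats was 219, 217, 241 and 218 from highest to lowest for both Mx1 and Oasl2, and it was the same after quantile normalization and after cyclic loess. The GTPases Ifi47, Irgm and Gbp2 had rats 219 and 218 on top, Epsti1 had rats 217 and 218, and Ifngr1 had rats 241 and 217. For Ifi47, whose 4 rats lay within 0.29, the order changed with either normalization. So rats 217 and 219 both lay above rats 218 and 241 for 2 of the 7 genes, as for 13.6% of all clusters. Of the 39 other interferon pathway genes called higher, 19 had rats 217 and 219 on top, beside 13.3% of all clusters called higher. Mx2, the second Mx GTPase, stood at 8.41, 7.33, 9.26 and 7.63 in rats 217, 218, 219 and 241. Oas2, which makes 2'-5'-oligoadenylates, stood at 5.81, 4.20, 6.48 and 4.61, and Rsad2, the antiviral enzyme viperin, at 5.89, 5.28, 6.96 and 5.11. In all 3 rat 219 was highest and rat 217 the next. The 4 OAS genes called higher all had this pair on top, as did 7 of 11 other antiviral genes called higher, against 5 of 12 genes classed as interferon-gamma targets. The pair was picked from the values of Mx1, so that these counts are a description with no test. In the plot of clinical course, read by eye, the score of rats 217 and 219 had begun to fall by day 13 and that of rats 218 and 241 was at its highest. Its part in the order was not tested. Markers of other cells differed in this order. None of the 5 monocyte and macrophage markers had rats 217 and 219 on top, and their summed linear level was highest in rat 218. Lyz2 weighs most in that sum. The summed level of the 3 microglia markers followed the order of Mx1, at 1902, 1705, 1915 and 1799 in rats 217, 218, 219 and 241, with the pair on top for 1 of the 3. That of the astrocyte markers also did, at 10270, 7858, 11190 and 9870, with the pair on top for 4 of 7. So did that of the endothelial markers, at 440, 349, 442 and 419, with the pair on top for 2 of 3. The sums of the remaining marker lists had other orders. The part of these cells in the order was not tested.

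**Figure D3:**
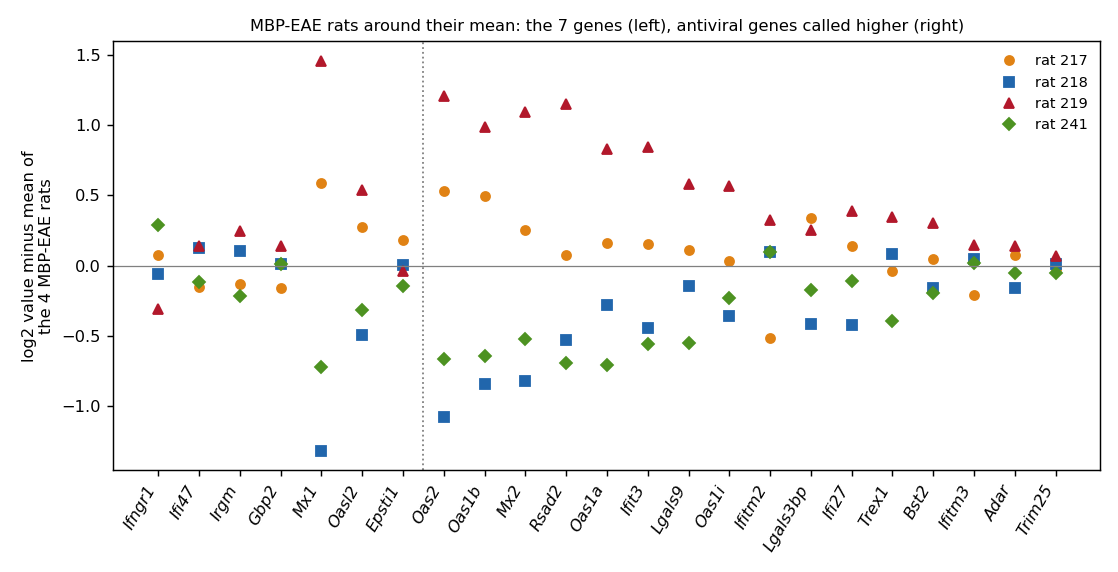
Log2 value of each MBP-EAE rat minus the mean of the 4 (vertical axis), 1 marker shape and colour per rat, for the 7 genes (left of the dotted line) and for the 16 antiviral genes called higher, ordered by spread (right). Rat 219 is highest and rat 218 or 241 lowest for Mx1, Oasl2 and the most variable antiviral genes, while Ifi47, Gbp2 and Epsti1 lie near 0 in all 4 rats.

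Of 59 measured genes in 8 lists of the interferon pathway, which leave out the 7, 39 were called higher (66.1%, against 11.3% of all clusters), 1 was lower (14.6% of all clusters were) and 19 were not called. Their median log2 fold change was 0.85, beside -0.10 for all clusters and 3.43 to 5.67 for 6 of the 7 genes. The lists too were chosen with earlier results of these data known, so that these shares are a description with no test. Of 15 symbols listed for interferon ligands, 2 matched a cluster of their own. Ifng rose by 0.85 on the log2 scale (SE 0.15, adjusted p = 0.00225). It lay below the lower quartile in all 4 healthy rats, so that the size of the change is uncertain. Ifnb1, the only type I interferon measured, changed by -0.42 (SE 0.16) and was not called (adjusted p = 0.0855). It lay at most at percentile 21.3 of its array in MBP-EAE rats, so that a rise could have been missed. In the list of receptors, kinases and STATs 4 genes were measured, none of them a receptor, and all 4 were called higher (median 1.13), with Stat2 at 1.99 (SE 0.12), Stat3 at 1.37 (SE 0.10) and Jak2 at 0.89 (SE 0.10). All 3 interferon regulatory factors were called higher, Irf1 by 3.05 (SE 0.10), Irf8 by 2.24 (SE 0.09) and Irf9, the partner of Stat2, by 1.62 (SE 0.19). The second chain of the interferon-gamma receptor had no cluster named for a single gene here.

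Of 9 genes that hold the response back, 3 were called higher and 1 lower, and the median over the list was -0.09. The phosphatases Ptpn6, Ptpn2 and Ptpn1 rose by 2.65 (SE 0.10), 0.76 (SE 0.13) and 0.57 (SE 0.10), although Ptpn1 was not called after the reference gene shift (adjusted p = 0.0954). Pias2, which inhibits STATs, fell by 0.29 (SE 0.09, adjusted p = 0.0349), and this call was lost under 7 alternatives, among them leaving out rat 194, 196, 217, 218 or 241 (adjusted p up to 0.261). Ptpn6 is also abundant in leukocytes. Socs1 and Socs3, the feedback inhibitors of JAK kinases, changed by -0.23 (SE 0.14) and -0.24 (SE 0.15) and were not called. Socs1 lay below the lower quartile in all 4 healthy rats and at most at percentile 24.1 of its array in MBP-EAE rats, so that a change could have been missed.

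In the OAS family 4 of 10 genes were called higher, with a median over the list of 0.09. They were Oas1a at 1.93 (SE 0.34), Oas1b at 1.59 (SE 0.37), Oas2 at 1.57 (SE 0.43) and Oas1i at 1.09 (SE 0.20). Oas2 and Oas1i lay below the lower quartile in all 4 healthy rats and Oas1b in 3, so that the sizes of these rises are uncertain. The call of Oas2 was lost when rat 194, 196 or 217 was left out (adjusted p from 0.0557 to 0.0646) and under 2 other tests, as was that of Oas1b (adjusted p up to 0.115). Related Oas1 copies may share probes, which was not tested. Oasl, the gene next to Oasl2 in RefSeq order, changed by 0.10 (SE 0.20, adjusted p = 0.755) from 3.87, below the lower quartile in all 4 healthy rats, against 3.77 for Oasl2. Of 28 symbols listed for other GTPases, 2 matched a cluster of their own. Another GTPase, Ifgga2l1, which was not in the list and was named for its likeness to Gbp2, rose 18.6-fold (14.7 to 23.5, adjusted p = 2.6e-08). Mx2 rose 4.01-fold (2.32 to 6.95, adjusted p = 0.00242) and was not called by Welch's test (adjusted p = 0.0698), and Irgc, a relative of the immunity-related GTPases known in mouse from testis, changed by -0.14 (SE 0.12, adjusted p = 0.445).

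Of 15 other antiviral genes 11 were called higher (median 0.85), led by Lgals3bp at 3.03 (SE 0.16), Ifit3 at 2.11 (SE 0.29) and Ifi27 at 1.80 (SE 0.18). Of 14 genes classed as interferon-gamma targets 12 were called higher (median 1.96). The MHC class II chaperone Cd74 rose by 7.16 (SE 0.11), and the T cell chemokines Cxcl9 and Cxcl11 by 6.86 (SE 0.17) and 5.81 (SE 0.27), beside 5.67 for Ifi47, and these differences were not tested. Cxcl11 lay below the lower quartile in all 4 healthy rats and Cxcl9 in 3, so that their folds are uncertain in size. Ido1, a tryptophan-degrading enzyme, changed by 0.03 (SE 0.13) and Gch1, which makes the cofactor of nitric oxide synthase, by 0.14 (SE 0.16), and neither was called. Both lay below the lower quartile in all 4 healthy rats, so that a change could have been missed. The sign of the change of Ido1 turned with the scaling.

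**Figure D4:**
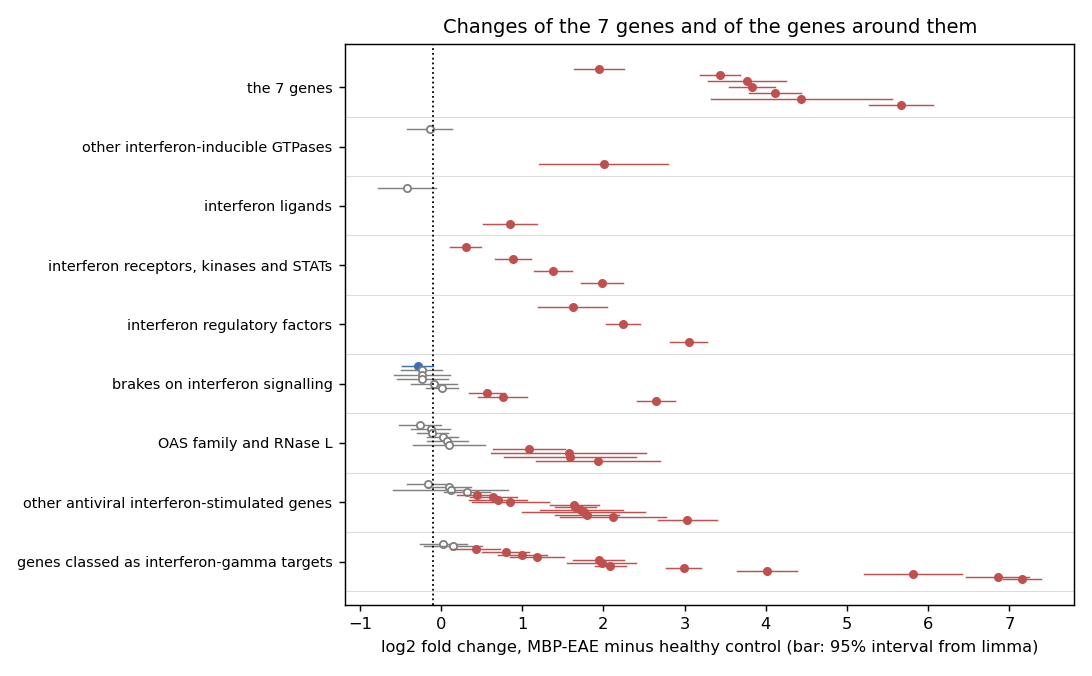
Log2 fold change, MBP-EAE minus healthy control (horizontal axis, bars are 95% intervals from limma), of the 7 genes and of 59 genes in 8 lists, red where called higher, blue where called lower, open grey where not called, with a dotted line at the median of all clusters. The 7 genes lie between 1.94 and 5.67, the OAS family and the brakes hold most of the open points, and Cd74 and Cxcl9 lie farthest right.

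Some markers of other cells also differed between the groups. All 5 measured monocyte and macrophage markers were called higher, led by Ccr2 at 4.90 (SE 0.26) and Lyz2 at 4.15 (SE 0.19). Their summed linear level was 258 to 388 in healthy and 4972 to 6178 in MBP-EAE rats. Lyz2 weighs most in this sum, at a log2 mean of 12.01 in MBP-EAE rats against 8.87 for Adgre1, the next highest. The 3 microglia markers rose from a summed 552 to 649 to 1705 to 1915. Cx3cr1 rose by 2.49 (SE 0.19) and Aif1 by 1.44 (SE 0.11). Of 9 T cell markers 7 were called higher, and the sum of all 9 went from 149 to 201 to 648 to 746. Cd4 rose by 3.56 (SE 0.15), Cd8a by 2.29 (SE 0.19) and Cd3d by 1.98 (SE 0.18), while Cd247 and Zap70 were not called. The authors cite Cd4 on microglia in this model as well. Cd4 had the highest MBP-EAE mean of the list, 8.50, so that its rise and the sum may not be of T cells alone. Of 6 NK cell markers 2 were called higher, Klrk1 by 3.67 (SE 0.16), from below the lower quartile in all 4 healthy rats, and Gzmb by 0.82 (SE 0.20), the latter lost under 3 alternatives (adjusted p up to 0.0656), while the NK receptor Ncr1 changed by -0.18 (SE 0.12). The only B cell marker measured, Cd79b, rose by 0.32 (SE 0.10, adjusted p = 0.0357), a call that was lost under 9 alternatives, among them leaving out any rat but 195 (adjusted p up to 0.493). None of 3 neutrophil and 2 dendritic cell markers was called by limma or by Welch's test on each cluster. Of these 5 only Cxcr2, of neutrophils, had an unadjusted p under 0.05, and it was called lower under 3 alternatives (array weights, median centring and without rat 193). S100a9 and Cxcr2 lay below the lower quartile in all 4 healthy rats and S100a8 in 3. A change in neutrophil markers could therefore have been missed, and the size of that of Cxcr2 is uncertain. Of 7 astrocyte markers 3 were called higher, Slc1a3 by 1.15 (SE 0.19) and Gfap by 0.69 (SE 0.14) among them. The other 4 were not called, among them Slc1a2 at -0.51 (SE 0.18) and S100b at -0.38 (SE 0.16). The median over the astrocyte list was 0.14, and its summed level overlapped between the groups. Of 9 oligodendrocyte markers 7 were called lower, led by Ugt8 at -1.18 (SE 0.14) and Gjb1 at -1.06 (SE 0.11). Of 8 neurone markers 3 were called lower, Nefl at -0.51 (SE 0.10) and Map2 at -0.44 (SE 0.13) among them, and the call of Map2 was lost under 8 alternatives (adjusted p up to 0.101). The endothelial transporter Slco1c1 fell by 0.73 (SE 0.16, adjusted p = 0.00648), and 2 other endothelial markers were not called. The haemoglobin chain Hbb-b1 fell by 3.30 (SE 0.45, adjusted p = 0.000447), the largest fall of all 8793 clusters. Slc4a1, the other red blood cell gene measured, changed by -0.15 (SE 0.11, adjusted p = 0.326) and was not called. Slc4a1 stood low on the scale in healthy rats, at percentile 31.9 to 35.8 of their arrays, so that a fall could have been missed. A difference in blood content therefore rests on 1 of 2 genes. How much of the rise of the 7 genes went with these cells or with blood content was not tested.

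The genes whose 8 values, centred on their own mean, lay closest to those of each member by root mean square difference are given by name. For Ifi47 they were Cybb, the catalytic chain of the phagocyte oxidase (0.190), Apobec1 (0.343) and Il2rg, the shared cytokine receptor chain (0.371). For Irgm they were Gda (0.187), the Fc receptor Fcgr3a (0.212) and the leukocyte phosphatase Ptprc (0.218), and for Gbp2 the chemokine Cxcl16 (0.130), the immunity-related GTPase Ifgga2l1 (0.169) and Ptprc (0.187). Epsti1 was matched most closely by the integrin Itgam (0.0964), the costimulator Cd86 (0.134) and the Fc receptor Fcgr2b (0.165), and Ifngr1 by Dclre1c (0.0955), Sat1 (0.106) and Npl (0.118). No gene came close to Mx1, for which Slfn4, complement C3 and Slfn9 were nearest at 0.523, 0.681 and 0.708. Slfn9 and Slfn4, of the interferon-inducible Schlafen family, were also nearest to Oasl2 (0.228 and 0.317), followed by Itgam (0.328). Slfn4 stood at 8.25, 7.81, 8.88 and 7.76 in rats 217, 218, 219 and 241, with the same pair of rats on top as Mx1. These likenesses are over 8 arrays in 2 groups that stand far apart, so that any gene with a rise of the same size lies near.

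In RefSeq order Irgm and Ifi47 lie 2 protein-coding genes apart on chromosome 10, and both rose, while the gene between them had no cluster of its own. Mx1 and Mx2 lie 2 apart on chromosome 11, and of the other neighbours within 3 places Bace2 (-0.39) and Tmprss2 (0.44) were not called and Pcp4 fell by 0.50 on the log2 scale. Beside Ifngr1 on chromosome 1, Il22ra2, a soluble receptor for interleukin 22, fell by 0.59 (adjusted p = 0.00244), and Tnfsf11, 2 places from Epsti1 on chromosome 15, changed by -0.0025 (adjusted p = 0.99). Rack1, 3 places from Irgm, rose by 1.86 (adjusted p = 0.000276). The genes beside Gbp2 on chromosome 2 are other guanylate-binding proteins, none of which had a cluster named for it alone.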

How the data were processed

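Spinal cord RNA of 8 Lewis rats was hybridised to 1 exon array for each rat. The authors used RMA with an adjustment for GC content and quantile normalization, took 1 mean per gene over its core probe sets, and deposited log2 intensities of 8793 transcript clusters. The submitters' processing notes name Affymetrix Expression Console, Partek and the rat build rn4. Because the values are log2, no count model was used, and array data have no read depth.

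Samples were grouped by their labels. Clusters were named through the platform annotation where it gave 1 symbol (7603 clusters), and 409 with several and 781 not listed entered the tests without a name. If several clusters bore one of the other gene names, the brightest on average was taken. limma (version 3.58.1, under R 4.3.3) compared the groups with lmFit and eBayes and without covariates, and the Benjamini-Hochberg adjustment covered all clusters. The fit was tested on simulated data. Pairs of genes were compared by the exact two-sided permutation test over 70 arrangements. Separate animals were the replicates. The batch of each array was not used here.

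The 7 genes, the lists and the motifs were chosen with earlier results of these data known. The genes named were, in each pathway list, the 3 called genes with the largest change, those called against the majority, and uncalled genes where a list had up to 3. In each marker list they were the 2 called genes with the largest change, and for each of the 7 genes the 3 nearest in pattern. Other genes were named after their values were seen, among them Snap25, Mbp, Oas1i, Rsad2, Socs1, Socs3, Ncr1 and the genomic neighbours. The 18 alternatives were other tests, priors, filters, weights and normalizations and leaving out each rat. The mean over several clusters of a gene was not needed, since each of the 7 had 1.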

Additional observations from a re-analysis of the deposited data

Results flagged for a closer look

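In 2 of 132 groups of 4 rats, over the 7 genes and 59 other named genes, 1 rat lay far from the other 3, and chance alone marks about 1 in 20 groups. Both were healthy rat 195, the array with the narrowest range of values. Gfap, the astrocyte filament, stood at 8.56 in it against 9.05 in the nearest healthy rat. Cd86, a costimulatory molecule named for its likeness to Epsti1, stood at 4.26 against 4.44. None of the 7 genes had such a rat, Mx1 included, since its 4 MBP-EAE values were spread out rather than 1 against 3.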

How the results depend on the processing

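Under the 18 alternatives all 7 genes kept their direction and their call. The largest adjusted p was 0.035, for Mx1 by Welch's test. The number of clusters called changed was 2274, and 3522 with array weights (1644 to 2466 when 1 rat was left out). Of the 59 pathway genes 39 were called higher, with 26 to 40 over the alternatives, the lowest where only clusters above the median level were tested, which leaves fewer genes. No pair of the 7 genes passed after adjustment under any alternative run for pairs. The change of Ido1, 0.03, turned to -0.0162 with array weights, -0.0145 with median centring and -0.115 with the reference gene shift, and it ran from -0.0475 to 0.125 when 1 rat was left out. The 7 genes and the 59 genes named by rule gave 1176 values under the alternatives. Of these, 36 lost a call, all in Cd79b, Gzmb, Map2, Mx2, Oas1b, Oas2, Pias2 and Ptpn1, and 1 gained one (Ifnb1 with median centring, adjusted p = 0.0391). Genes named after their values were seen, such as Cxcr2, are outside this count. Array values near the bottom of the scale limit the size of the fold of Mx1, Oasl2, Ifng, Cxcl9, Cxcl11, Klrk1, Oas2, Oas1b and Oas1i among others. No paired analysis was possible because the groups share no replicate numbers.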
